A study of Mus musculus with 6 samples.

Results

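The genes of hyaluronan synthesis, reception and breakdown were examined in mouse embryonic fibroblasts (MEF) that had crossed narrow pores and in the parental cells. The set was chosen by gene symbol and held 8 genes of the 55335 gene identifiers in the table: the synthases Has1, Has2 and Has3, the receptors Cd44 and Hmmr, and the degrading enzymes or their partners Hyal1, Hyal2 and Cemip. All libraries came from cells labelled as wild-type MEFs, grown in serum-containing medium. The Ctrl group was the parental cells, and the Confine group was the cells collected 15 h after seeding above a membrane with pores of 3 μm that had passed to the other side. The study used these libraries to look for regulators of migration through confined spaces. The paper describes medium without serum above the membrane and complete medium below it, for a transwell assay with wider pores. The medium used above the 3 μm pores is not given there. Culture on the membrane, its medium, passage through the pores and selection of the cells that crossed were shared by all Confine cells. Their effects cannot be told apart here.

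Polyadenylated RNA was sequenced and the reads counted on each gene, without normalization. Of the 3 columns per group, the columns of Confine replicates 1 and 2 held the same count in every gene and were counted as 1 library, called the repeated Confine library below, which left 3 Ctrl and 2 Confine libraries. Their totals ran from 22287210 to 32537550 counts. The labels do not say whether the libraries came from separate cultures, so p-values measure the spread between these libraries, which may be technical. Of 12 fibroblast markers, 8 passed the filter on low counts, among them Col1a1, Col1a2, Vim and Fn1. Of the 8, 5 rose in Confine by edgeR's test, against 12.8% of all tested genes. The others were Col1a2, Pdgfrb and S100a4, with log2 fold changes of 0.24, -0.36 and -0.28, none past the test. Thy1, Lum and Fap reached no more than 2 counts and Dcn no more than 27. The summed level of this list was 8750 to 9600 normalized CPM in Ctrl and 15700 to 16500 in Confine. Normalized CPM is the CPM value (counts scaled to the library total) after correction by edgeR's TMM factors, and SE below is the standard error of a log2 fold change.

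Hyaluronan is a long unbranched sugar polymer of the pericellular matrix, extruded through the plasma membrane by the synthases that build it from UDP-glucuronic acid and UDP-N-acetylglucosamine. CD44 is its main cell surface receptor and is tied to the actin cortex by ezrin, radixin and moesin, whereas HMMR (RHAMM) was first described as a hyaluronan-binding protein and is also a protein of the mitotic spindle. Breakdown runs through HYAL2 at the cell surface and HYAL1 in lysosomes, and CEMIP mediates hyaluronan depolymerization in fibroblasts.

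Has2, Hyal1, Cd44 and Hyal2 rose in Confine, Hmmr and Cemip fell, and Has1 and Has3 did not pass the test (edgeR's quasi-likelihood F test, adjusted over the 15881 tested genes by the Benjamini-Hochberg method, adjusted p under 0.05). The sizes ran from 8.47-fold higher for Hyal1 and 3.94-fold higher for Has2 to 2.85-fold lower for Hmmr. All 8 genes passed the filter on low counts, so 6 of 8 were called, against 23.0% of all tested genes. Of the 8, 4 rose, against 12.8%, and 2 fell, against 10.2%. With an absolute log2 fold change above 1.5 also required, 3 of 8 passed (Has2, Hyal1 and Hmmr), against 8.0% of all tested genes. Of these, Has2 and Hyal1 were higher in Confine, as were 4.89% of all tested genes, and Hmmr was lower, as were 3.11%. The median log2 fold change over the 8 genes was 0.75, beside -0.002 over all tested genes. In 6 of 8 genes the groups did not overlap in normalized CPM, a pattern found in 49.5% of all tested genes. For each of these 6 genes an exact permutation test (two-sided, over log2(CPM + 1) values) gave p = 0.1, the smallest value that 3 libraries against 2 allow, and for Has1 and Has3 it gave p = 0.3. With scaling by library totals and no TMM factors, all tested genes shifted by a median of -0.208 on the log2 scale and the share of calls that were higher in Confine went from 55.7% to 34.0%, but these 6 genes kept their call and direction.

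**Figure D1:**
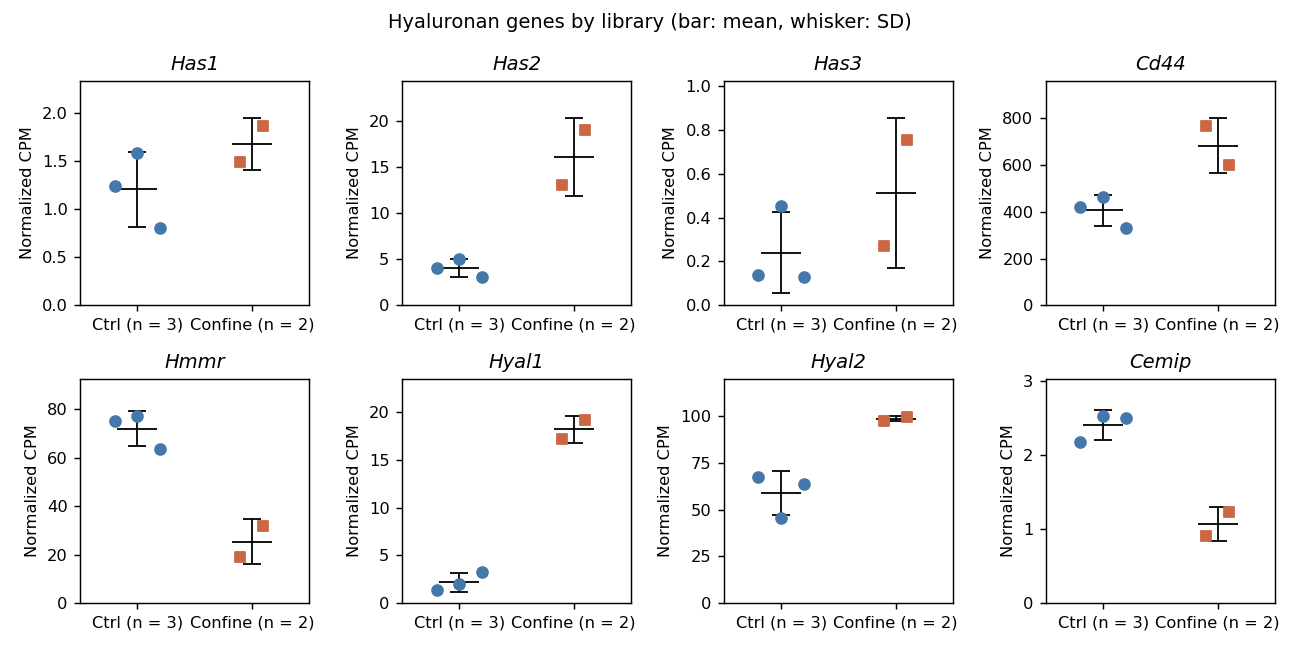
Normalized CPM of the 8 hyaluronan genes in each library (blue circles, 3 Ctrl; orange squares, 2 Confine; bar, mean; whisker, SD; every axis starts at 0). Both Confine libraries lay above the Ctrl libraries for Has2, Cd44, Hyal1 and Hyal2 and below them for Hmmr and Cemip, while the groups overlapped for Has1 and Has3.

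Among the synthases, Has2 carried the change. Has2 (ENSMUSG00000022367.7), which encodes the synthase that makes most hyaluronan in embryonic mesenchyme, is found on chromosome 15 at 56665627 to 56694539 (GRCm38, minus strand). Has2 had 387 and 480 counts in Confine, against 116, 134 and 73 in Ctrl. Both Confine libraries were well above all Ctrl libraries, with 4.06 ± 0.981 normalized CPM (SD, n = 3) in Ctrl and 16.1 ± 4.23 (SD, n = 2) in Confine. This was a log2 fold change of 1.98 (SE 0.25, 95% interval 1.45 to 2.51, edgeR adjusted p = 1.23e-05). It ranged from 1.68 to 2.23 with each library left out in turn. In bulk RNA such a change cannot be divided between more cells with the transcript and more transcript per cell.

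Has2os, a noncoding gene transcribed from the opposite strand, overlaps the first part of Has2 and shares 182 bp of its exons. It had 25, 22 and 15 counts in Ctrl and 116 and 149 in Confine, and also rose, with a log2 fold change of 2.64 (SE 0.34, edgeR adjusted p = 1.6e-05). The library preparation kept the strand, but the setting used for counting is not given in the sources used here. Without a strand-aware setting, reads of the shared bases could not be told apart. The shared stretch is a small part of the 4237 bp of Has2 exons.

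Has1 (ENSMUSG00000003665.7, chromosome 17, 17843323 to 17855205, minus strand), a synthase known to be less active than HAS2, had 36, 42 and 19 counts in Ctrl and 44 and 47 in Confine. The groups overlapped, and the log2 fold change of 0.46 (SE 0.41, edgeR adjusted p = 0.469) had a 95% interval from -0.40 to 1.31. Has3 (ENSMUSG00000031910.14, chromosome 8, 106870242 to 106884566, plus strand), the synthase known for shorter chains, had 4, 12 and 3 counts in Ctrl and 8 and 19 in Confine. These counts were too few to settle a change of moderate size: the log2 fold change was 1.06 (SE 0.73, edgeR adjusted p = 0.331), with a 95% interval from -0.47 to 2.59, and without Confine replicate 3 it was 0.16. For Has1 the interval lies below the change of Has2, and a moderate change of Has1 or Has3 was not detectable at this depth. Has3 shares 352 bp of its 6380 bp of exons with Chtf8, a gene on the opposite strand. The part that shared reads have in the Has3 counts was not tested.

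The makeup of the synthase transcripts differed between the groups. Levels of different genes were compared as normalized CPM per kilobase of annotated exon. The summed level of the synthases was 1.26 ± 0.344 CPM per kb (SD, n = 3) in Ctrl and 4.24 ± 1.11 (SD, n = 2) in Confine. Has2 made up 76.1%, 73.9% and 78.7% of this sum in Ctrl, against 89.3% and 89.4% in Confine. The share of Has1 was 22.2%, 21.7% and 19.2% in Ctrl and 9.52% and 8.21% in Confine. Neither share overlapped between the groups, but shares of the same sum depend on each other. The level of Has1 itself was not lower in Confine, at 0.268 ± 0.0864 CPM per kb (SD, n = 3) in Ctrl and 0.371 ± 0.0594 (SD, n = 2) in Confine. The share of Has3 was at most 4.39% in any library.

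The synthases draw on UDP-sugars, and the enzyme that makes UDP-glucuronic acid changed in the same direction as Has2. Ugdh, UDP-glucose dehydrogenase, had 6485, 4301 and 5296 counts in Ctrl and 18560 and 15737 in Confine. Its level was 204 ± 35.8 normalized CPM (SD, n = 3) in Ctrl and 626 ± 1.57 (SD, n = 2) in Confine, a log2 fold change of 1.62 (SE 0.19, edgeR adjusted p = 4.17e-06). Of 9 genes listed for UDP-sugar supply, 7 were tested and 2 rose, against 12.8% of all tested genes, with a median log2 fold change of 0.38. The second was Pgm3, a phosphoglucomutase of the UDP-N-acetylglucosamine route, with a log2 fold change of 0.74 (SE 0.21, edgeR adjusted p = 0.0164). Its call was lost without either Confine library and with library size alone. Of the other tested genes of that route, Gfpt1 was at 0.41, Uap1 at 0.38, Nagk at 0.27 and Uap1l1 at -0.48, none past edgeR's test, and Ugp2, which supplies UDP-glucose, gave -0.44 (edgeR adjusted p = 0.126). Gfpt2 and Gnpnat1 were not tested, with no more than 4 counts in a library. The count of listed genes called was 5 without Ctrl replicate 2 and 1 without either Confine library, and Ugdh was called in every fit.

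**Figure D2:**
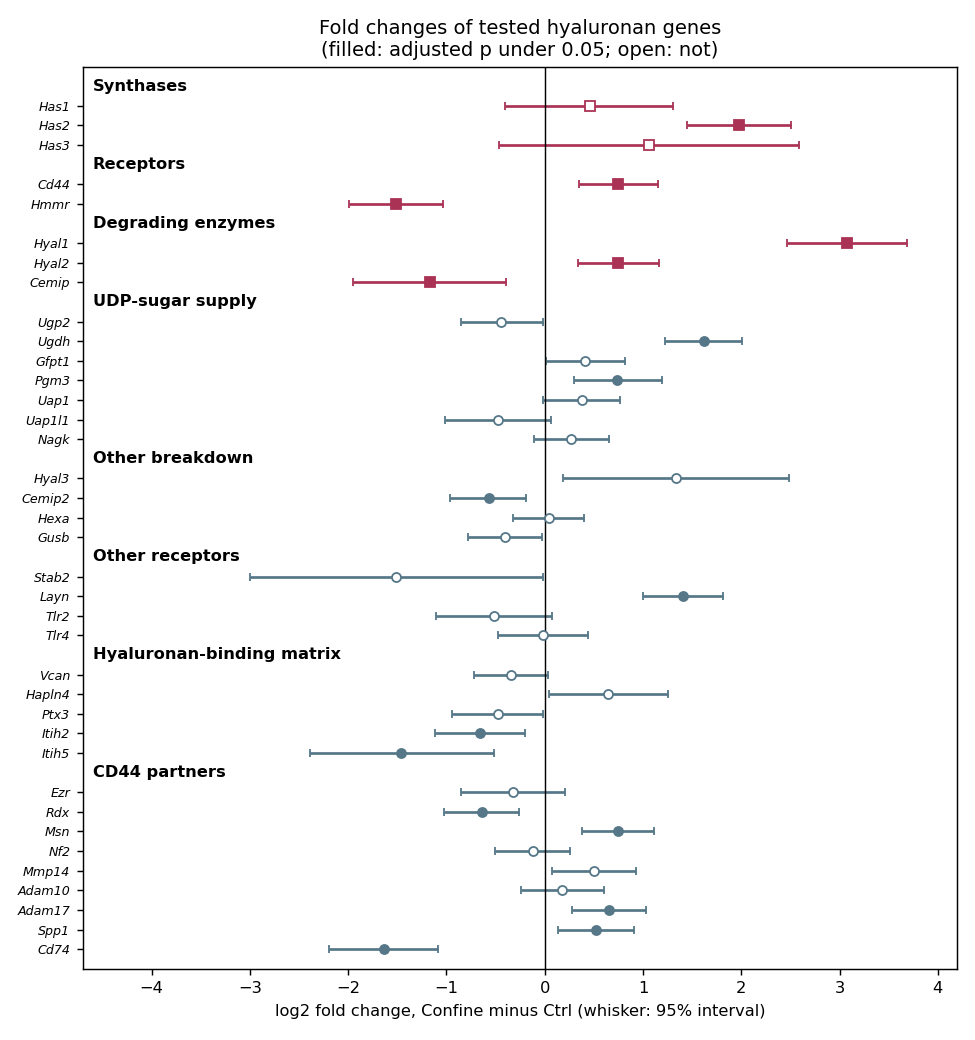
Log2 fold change (Confine minus Ctrl, horizontal axis) with its unadjusted 95% interval for the 8 hyaluronan genes (red squares) and tested genes of 5 related lists (grey circles). Filled symbols mark an edgeR adjusted p under 0.05. Hyal1 at 3.08 and Has2 at 1.98 lie furthest to the right and Cd74 at -1.64 and Hmmr at -1.51 are the filled symbols furthest to the left.

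The receptor transcripts moved in opposite directions. Cd44 (ENSMUSG00000005087.17, chromosome 2, 102811141 to 102901665, minus strand) was among the most abundant transcripts, with 98.3% of tested genes at a lower average level. It had 12202, 12313 and 7813 counts in Ctrl and 22683 and 15122 in Confine. All values of Confine were above those of Ctrl, at 406 ± 67.8 normalized CPM (SD, n = 3) in Ctrl and 683 ± 117 (SD, n = 2) in Confine. Cd44 thus rose 1.68-fold, by 0.75 on the log2 scale (SE 0.19, 95% interval 0.35 to 1.15, edgeR adjusted p = 0.00783). The call was lost without Ctrl replicate 3 (log2 fold change 0.61, edgeR adjusted p = 0.0554) and without the repeated Confine library (0.57, edgeR adjusted p = 0.129).

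Cd44 is also abundant in leukocytes, so their markers were counted. Of 12 leukocyte markers, 5 were tested. Of these, 3 rose (Cd68, Cd14 and Csf1r) and 2 fell (Lyz2 and Coro1a), against 12.8% and 10.2% of all tested genes. Among fits that kept both Confine libraries, Csf1r was not called without Ctrl replicate 2 or without Ctrl replicate 3. It was also not called with library size alone, with DESeq2 or with the replicate number as a block. With each library left out, the log2 fold change ran from 1.12 to 1.73 for Csf1r, from 0.83 to 1.07 for Cd14 and from -2.40 to -0.78 for Coro1a. The defining markers Adgre1 and Cd3e had 0 counts in every library, which allows up to 3 counts or 0.128 normalized CPM, and Ptprc had at most 2 counts. The summed level of the list was 19.9 to 23.7 normalized CPM in Ctrl and 36.5 to 44.2 in Confine, and the part of these transcripts in the Cd44 values was not tested. Of 6 endothelial and 6 epithelial markers 0 were tested, with summed levels of at most 0.718 and 0.675 normalized CPM.

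The promoter window of Cd44, from 250 bases before the RefSeq start to 30 after it, is shown because the gene rose and because this window holds a match to ACGTG, the core of the site bound by hypoxia-inducible factors (capitals). The window is chr2:102901636-102901915 on the minus strand of GRCm38.p6.
Cd44 promoter: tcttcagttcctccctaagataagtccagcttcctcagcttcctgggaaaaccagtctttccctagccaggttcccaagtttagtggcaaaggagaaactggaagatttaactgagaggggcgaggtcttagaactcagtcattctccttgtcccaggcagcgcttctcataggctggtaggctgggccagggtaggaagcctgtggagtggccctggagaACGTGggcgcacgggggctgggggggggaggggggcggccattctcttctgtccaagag
The match starts at position -29. Among 32851 promoter windows of RefSeq, each 300 bases long, 19.6% held ACGTG on either strand and 43.8% held ACGTG or GCGTG. The Hyal2 window held GCGTG at position 43, and the windows of Has1, Hmmr, Hyal1 and Cemip held neither.

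The transcripts of the proteins that link CD44 to actin did not move together. Msn, which encodes moesin, rose from 437 ± 43.1 normalized CPM (SD, n = 3) to 732 ± 4.58 (SD, n = 2), a log2 fold change of 0.75 (SE 0.17, edgeR adjusted p = 0.00401). Rdx, which encodes radixin, fell from 151 ± 15.9 to 97.0 ± 1.36 normalized CPM, a log2 fold change of -0.64 (SE 0.18, edgeR adjusted p = 0.0157) that did not pass the test without either Confine library. Ezr, which encodes ezrin, had 6.14 ± 0.554 and 4.91 ± 0.654 normalized CPM and an edgeR adjusted p of 0.403. Of the 11 genes listed as partners of CD44, 9 were tested, 3 rose and 2 fell, against 12.8% and 10.2% of all tested genes, with a median log2 fold change of 0.18. The others that rose were the sheddase gene Adam17 (log2 fold change 0.65, edgeR adjusted p = 0.0113) and Spp1, the gene of the CD44 ligand osteopontin (0.52, edgeR adjusted p = 0.0486). Both calls were lost in most of the fits that left out a library and with library size alone. They were also lost with the replicate number as a block where the repeated library was number 2, and that of Spp1 with RLE scaling factors. Cd74, which encodes a partner of CD44 in signalling by the cytokine MIF, fell by 1.64 on the log2 scale (SE 0.26, edgeR adjusted p = 1.42e-04). The sheddases Mmp14 and Adam10 had log2 fold changes of 0.50 and 0.18, neither past the test. The splicing regulators Esrp1 and Esrp2, which set the exon content of CD44 in epithelia, had at most 2 counts.

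Hmmr (ENSMUSG00000020330.16, chromosome 11, 40701395 to 40733422, minus strand) had 2181, 2042 and 1496 counts in Ctrl and 555 and 804 in Confine. Both Confine libraries were below all Ctrl libraries, at 72.0 ± 7.35 normalized CPM (SD, n = 3) in Ctrl and 25.3 ± 9.31 (SD, n = 2) in Confine. Hmmr changed by -1.51 on the log2 scale (SE 0.23, 95% interval -1.99 to -1.03, edgeR adjusted p = 7.22e-05). It was -1.94 without Confine replicate 3 and -1.17 without the repeated Confine library, and the call held in every fit.

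Hmmr fell along with the genes of mitosis. Of 20 spindle partners of HMMR and other G2/M genes, all 20 were tested and 18 fell, against 10.2% of all tested genes that fell, and their median log2 fold change was -1.56. The 18 ran from -1.97 to -1.15, and the value of Hmmr lay within this range. The largest falls were those of Kif11, a spindle motor (-1.97), Plk1, a mitotic kinase (-1.96), and Cdc20, an activator of the anaphase-promoting complex (-1.82). The exceptions were Dynll1, a dynein light chain, at 0.45 (edgeR adjusted p = 0.0803) and Numa1, a spindle pole protein, at 0.02 (edgeR adjusted p = 0.952). All 18 genes that fell were lower in the repeated Confine library than in Confine replicate 3, as was Hmmr. Without the repeated Confine library 15 of the 20 were called. This list was known to fall in these libraries before it was written and is no independent evidence on Hmmr.

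**Figure D3:**
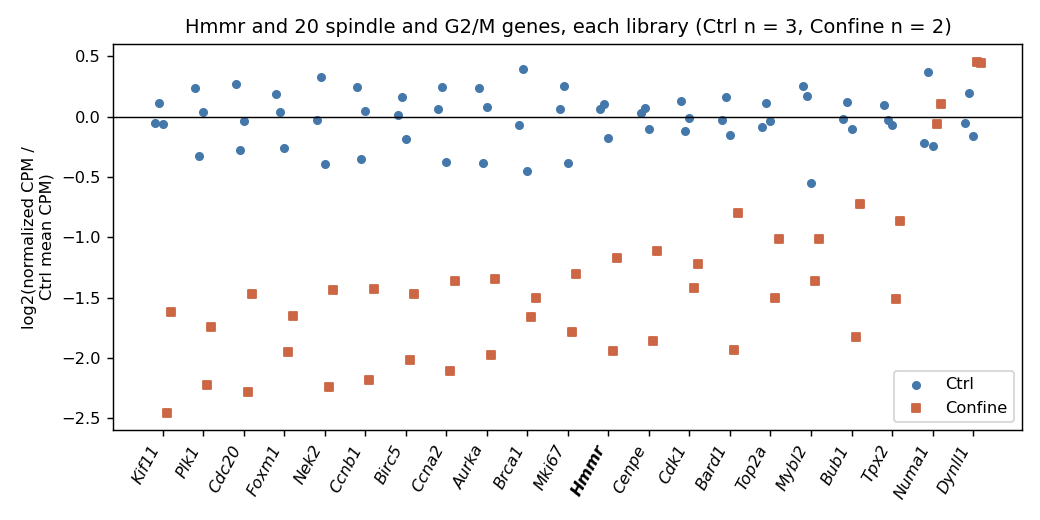
Level of Hmmr and of 20 spindle and G2/M genes in each library, as log2 of the normalized CPM over the Ctrl mean (blue circles, 3 Ctrl; orange squares, 2 Confine; genes ordered by log2 fold change). Hmmr (bold) sits among the genes that fell, and Numa1 and Dynll1 at the right end are the genes that did not pass the test.

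The Hmmr promoter window, chr11:40733408-40733687 on the minus strand of GRCm38.p6, is shown because many genes of the G2 and M phases share a pattern of CCAAT boxes and a cell cycle homology region. Capitals mark CCAAT, here in its reverse complement ATTGG, and the homology region letters TTTGAA.
Hmmr promoter: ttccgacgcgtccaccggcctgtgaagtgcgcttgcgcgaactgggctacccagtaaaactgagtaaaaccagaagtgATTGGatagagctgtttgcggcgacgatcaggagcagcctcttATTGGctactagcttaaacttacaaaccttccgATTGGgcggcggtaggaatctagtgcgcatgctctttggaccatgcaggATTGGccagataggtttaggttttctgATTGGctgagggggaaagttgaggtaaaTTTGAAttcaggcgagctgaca
The window held 5 CCAAT boxes, at positions -172, -129, -96, -47 and -20, and TTTGAA at position 9. Of the 32851 windows 37.4% held CCAAT on either strand, 0.271% held 5 or more, and 17.9% held the homology region letters. A window with a CCAAT box and with TTTGAA or TTTAAA was found in 10.7% of cases. Of the 20 mitosis genes 17 had a window, and counted over all windows of a gene, 13 of the 17 held CCAAT, 11 held TTTGAA or TTTAAA and 1 held 5 or more CCAAT boxes. Counted in the same way over 27025 genes, these shares were 41.1%, 30.6% and 0.311%. The Has1 window also held both, with CCAAT at position -203 and TTTGAA, in its reverse complement, at position -45. Has1 did not fall (log2 fold change 0.46, edgeR adjusted p = 0.469). These matches describe letters and not binding.

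Nudcd2, a gene for a cochaperone, starts 245 bp from the start of Hmmr on the opposite strand, so the window spans the gap between the pair. It had 2534, 2157 and 1915 counts in Ctrl and 2052 and 1461 in Confine. Its log2 fold change of -0.39 (SE 0.18, 95% interval -0.77 to -0.01) did not pass the test (edgeR adjusted p = 0.135) and was smaller than that of Hmmr, whose interval did not overlap it. The difference between them was not tested.

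Transcripts of other cell surface proteins that bind hyaluronan were mostly low or did not pass the test. Layn, which encodes layilin, a C-type lectin receptor for hyaluronan at cell edges, was the exception. It had 933, 689 and 766 counts in Ctrl and 2031 and 2319 in Confine, with both Confine libraries above all Ctrl libraries. Layn rose by 1.41 on the log2 scale (SE 0.19, edgeR adjusted p = 2.66e-05), or by 1.18 to 1.61 with each library left out. Of the 6 genes of this list 4 were tested and 1 rose, against 12.8% of all tested genes, and the median log2 fold change was -0.27. Stab2, a scavenger receptor of hyaluronan, had 17, 14 and 7 counts in Ctrl and 5 and 4 in Confine, a log2 fold change of -1.51 (edgeR adjusted p = 0.141) that did not pass the test. Tlr2 and Tlr4, receptors reported to sense hyaluronan fragments, had log2 fold changes of -0.52 (edgeR adjusted p = 0.207) and -0.02 (edgeR adjusted p = 0.964), and the endothelial receptors Lyve1 and Stab1 had at most 7 counts.

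The largest change among the 8 genes was that of a degrading enzyme. Hyal1 (ENSMUSG00000010051.15, chromosome 9, 107576927 to 107581710, plus strand), the acid hyaluronidase of lysosomes, had 38, 52 and 76 counts in Ctrl and 510 and 484 in Confine. The groups were far apart, at 2.17 ± 0.976 normalized CPM (SD, n = 3) in Ctrl and 18.2 ± 1.40 (SD, n = 2) in Confine. Hyal1 rose by 3.08 on the log2 scale (SE 0.29, 95% interval 2.47 to 3.69, edgeR adjusted p = 3.8e-07), and 182 of the 7912 tested genes with a positive change had a larger one. With each library left out it ran from 2.81 to 3.46. Of its 3777 bp of exons, 1961 bp are shared with other genes on the same strand, so its reads could be assigned with certainty only in the other 1816 bp.

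The gene that shares most of these bases rose as well. Naa80, which encodes the N-terminal acetyltransferase of actin, shares 1920 bp of exon with Hyal1 and had 618, 465 and 663 counts in Ctrl and 2869 and 2637 in Confine. Naa80 rose by 2.17 on the log2 scale (SE 0.20, edgeR adjusted p = 3.63e-07). The part that shared reads have in either value was not tested. Hyal3, the third hyaluronidase gene of this cluster, had 13, 5 and 21 counts in Ctrl and 36 and 34 in Confine. Its log2 fold change of 1.34 (SE 0.55) did not pass the test (edgeR adjusted p = 0.0889).

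Hyal2 (ENSMUSG00000010047.12, chromosome 9, 107567945 to 107572779, plus strand), the membrane-anchored hyaluronidase, lies 4148 bp from Hyal1 and shares no exon with another gene. It had 1959, 1199 and 1493 counts in Ctrl and 2893 and 2510 in Confine. The Confine libraries were above all Ctrl libraries, at 58.8 ± 11.9 normalized CPM (SD, n = 3) in Ctrl and 98.7 ± 1.36 (SD, n = 2) in Confine. Hyal2 rose by 0.75 on the log2 scale (SE 0.19, 95% interval 0.34 to 1.16, edgeR adjusted p = 0.00888). It was 0.76 without the repeated Confine library (edgeR adjusted p = 0.0705) and 0.73 without Confine replicate 3 (edgeR adjusted p = 0.0893), so the call needed both.

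The genes around Hyal1 moved in both directions. Within 50 kb of Hyal1 lie 19 other annotated genes with a row in the table, of which 14 were tested, 3 rose (Naa80, Rassf1 and Hyal2) and 1 fell (Ifrd2), beside 23.0% of all tested genes called in either direction, which is near the share here. Rassf1, which encodes a RAS association domain protein, had a log2 fold change of 1.29 (SE 0.21, edgeR adjusted p = 1.87e-04). Ifrd2, the next gene beyond Hyal3, had -1.33 (SE 0.29, edgeR adjusted p = 0.00258), a call that was lost without the repeated Confine library (-0.92). Tusc2 and Nprl2, which lie on the same side as Rassf1, had -0.31 and 0.11, neither past the test. The interval of Hyal1 lay above that of Hyal2 (2.47 to 3.69 against 0.34 to 1.16).

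**Figure D4:**
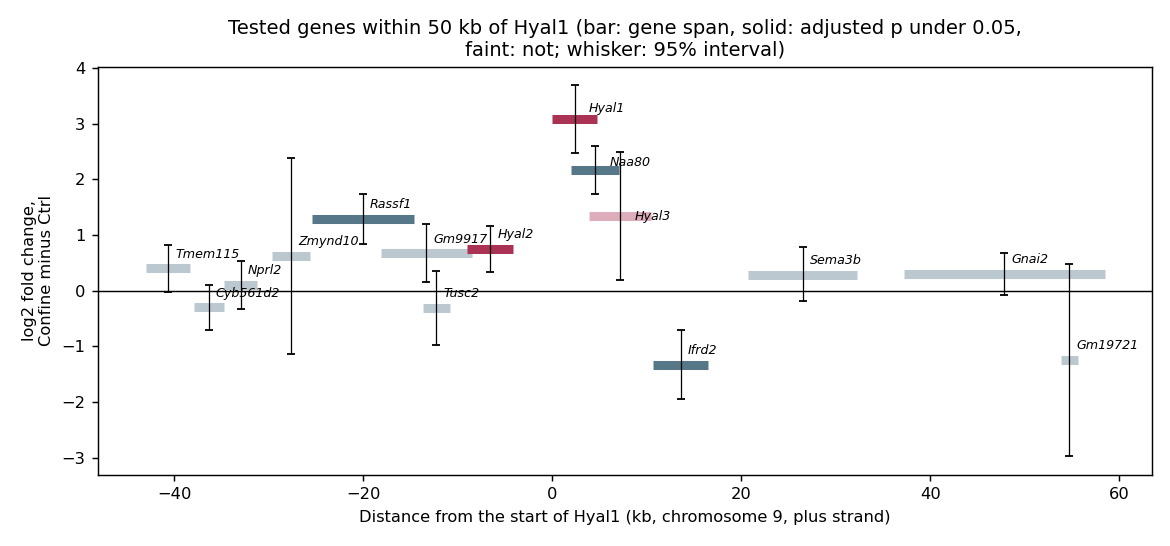
Log2 fold change (Confine minus Ctrl, vertical axis) of Hyal1 and the 14 tested genes within 50 kb of it, against distance from the Hyal1 start in kb. Bars span each gene (red, hyaluronidases; grey, others; solid, edgeR adjusted p under 0.05; faint, not) and whiskers are unadjusted 95% intervals. Hyal1 and Naa80 stand highest, Rassf1 and Hyal2 are lower, and Ifrd2 lies below 0.

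The Hyal1 promoter window, chr9:107576700-107576979 on the plus strand of GRCm38.p6, is printed because Hyal1 changed most. It held 1 CCAAT box, at position -49 and in the reverse complement (capitals), and none of the other motifs searched.
Hyal1 promoter: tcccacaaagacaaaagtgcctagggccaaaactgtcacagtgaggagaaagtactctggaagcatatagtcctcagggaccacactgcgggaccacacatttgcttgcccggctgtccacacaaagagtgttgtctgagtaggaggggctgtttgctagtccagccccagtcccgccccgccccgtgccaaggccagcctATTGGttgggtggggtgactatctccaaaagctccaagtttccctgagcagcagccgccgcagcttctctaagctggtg
Of the 8 genes 6 matched the promoter table (Has1, Cd44, Hmmr, Hyal1, Hyal2 and Cemip).

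Per length, Hyal2 remained the main transcript among Hyal1, Hyal2 and Cemip, but the share of Hyal1 grew. Cemip2, a relative of Cemip outside the 8 genes, was left out of this sum. It was at 10.1 ± 1.04 CPM per kb (SD, n = 3) in Ctrl and 6.77 ± 0.056 (SD, n = 2) in Confine. The shares below are therefore not shares of all breakdown transcripts. The summed level of Hyal1, Hyal2 and Cemip was 18.6 ± 3.61 CPM per kb (SD, n = 3) in Ctrl and 34.9 ± 0.803 (SD, n = 2) in Confine. Hyal1 made up 1.65%, 3.59% and 4.21% of this sum in Ctrl and 13.3% and 14.4% in Confine, and Hyal2 made up 94.8% to 97.5% in Ctrl and 86.5% and 85.4% in Confine. The ratio of Hyal1 to Hyal2 per length was 0.0169, 0.0378 and 0.0444 in Ctrl and 0.154 and 0.168 in Confine, and with only the unshared bases of Hyal1 as its length, 0.0352 to 0.0923 in Ctrl and 0.320 and 0.350 in Confine. The groups did not overlap on either length. The unshared length applies only if reads of the shared bases were not counted, which is not known.

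**Figure D5:**
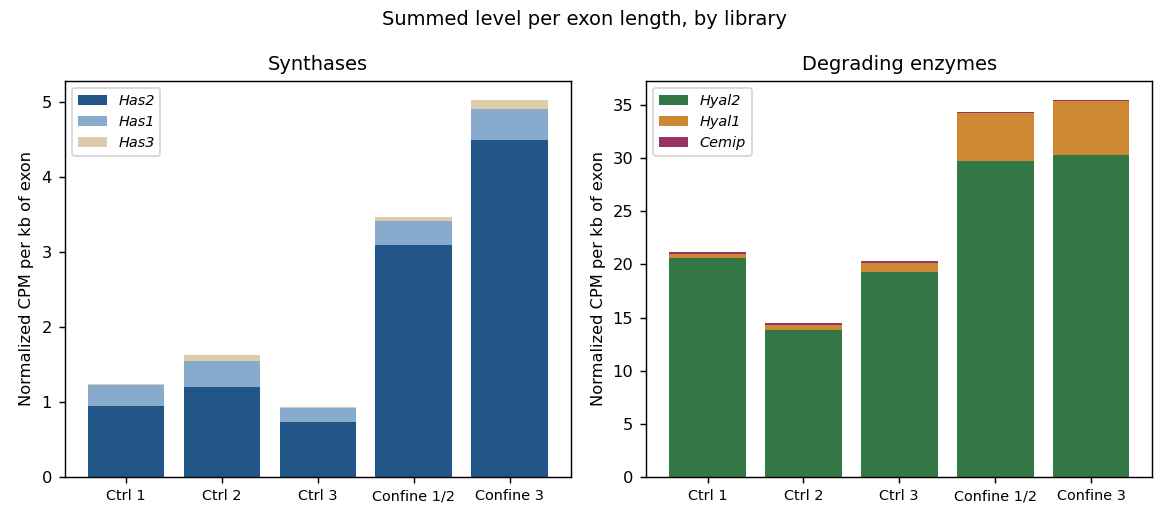
Normalized CPM per kb of annotated exon, stacked by gene, in each of the 5 libraries (Confine 1/2 is the repeated Confine library). The synthases are on the left, and Hyal1, Hyal2 and Cemip are on the right. The sums were higher in both Confine libraries than in any Ctrl library, with Has2 making up 89.3% and 89.4% and Hyal1 13.3% and 14.4% of their sums in Confine.

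Cemip went the other way. Cemip (ENSMUSG00000052353.13, chromosome 7, 83932857 to 84086502, minus strand) had 63, 67 and 59 counts in Ctrl and 27 and 31 in Confine. Both Confine libraries were below all Ctrl libraries, at 2.41 ± 0.199 normalized CPM (SD, n = 3) in Ctrl and 1.07 ± 0.225 (SD, n = 2) in Confine. Cemip changed by -1.17 on the log2 scale (SE 0.37, 95% interval -1.95 to -0.39, edgeR adjusted p = 0.0289). The call was lost without Ctrl replicate 3 (-1.15, edgeR adjusted p = 0.0596), without the repeated Confine library (-0.96, edgeR adjusted p = 0.195), without Confine replicate 3 (-1.39, edgeR adjusted p = 0.0687) and with the replicate number as a block where the repeated library was number 2 (-1.25, edgeR adjusted p = 0.066), but held where it was number 1 (-1.14, edgeR adjusted p = 0.0304). Its relative Cemip2, which encodes a transmembrane protein also linked to hyaluronan breakdown, was far more abundant and fell by 0.57 on the log2 scale (SE 0.18, edgeR adjusted p = 0.0292). It had 2267, 2529 and 1970 counts in Ctrl and 1717 and 1444 in Confine, and its call was also lost without either Confine library.

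Hexa and Gusb encode lysosomal enzymes that act on hyaluronan fragments. Hexa, which encodes the alpha subunit of a hexosaminidase, had a log2 fold change of 0.04 (edgeR adjusted p = 0.901), and Gusb, which encodes beta-glucuronidase, had -0.40 (edgeR adjusted p = 0.119), so neither passed the test. Hyal4, Hyal5 and Spam1 had 0 counts in every library, which allows up to 3 counts, or 0.101 to 0.128 normalized CPM.

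Among the genes of secreted proteins that organize hyaluronan, the called changes were falls. Of 17 listed genes 5 were tested and 2 fell, against 10.2% of all tested genes, namely Itih2 and Itih5, genes of heavy chains that can be joined to hyaluronan, at -0.66 (SE 0.22) and -1.46 (SE 0.44) on the log2 scale, with edgeR adjusted p of 0.0368 and 0.0229. Both calls were lost without Ctrl replicate 1, without Ctrl replicate 3 and without the repeated Confine library, and that of Itih5 also without Confine replicate 3. Vcan, the gene of the large hyaluronan-binding proteoglycan versican, was at 176 ± 10.7 normalized CPM in Ctrl (SD, n = 3) and 139 ± 10.5 (SD, n = 2) in Confine (log2 fold change -0.34, edgeR adjusted p = 0.180). Ptx3, which encodes pentraxin 3, had -0.48 (edgeR adjusted p = 0.130), Hapln4, which encodes a link protein, had 0.64 (edgeR adjusted p = 0.118), and Tnfaip6, whose product transfers heavy chains to hyaluronan, had at most 4 counts in any library.

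In order of level per exon length in Ctrl, Cd44 came first with 60.0 ± 10.0 CPM per kb (SD, n = 3), followed by Hyal2 with 17.9 ± 3.61 and Hmmr with 13.3 ± 1.35. Has2 (0.958 ± 0.232), Hyal1 (0.575 ± 0.258), Has1 (0.268 ± 0.0864), Cemip (0.197 ± 0.0163) and Has3 (0.0376 ± 0.0290) followed. In this order the libraries of Hyal2 and Hmmr overlapped, as did those of Has2 and Hyal1, of Hyal1 and Has1, and of Has1 and Cemip. In Confine the order was Cd44 (101 ± 17.3 CPM per kb, SD, n = 2), Hyal2 (29.7 and 30.3 in the libraries), Hyal1 (4.82 ± 0.372), Hmmr (4.67 ± 1.71), Has2 (3.79 ± 0.999), Has1 (0.371 ± 0.0594), Cemip (0.0876 ± 0.0184) and Has3 (0.0803 ± 0.0537). The libraries of Hmmr overlapped those of Hyal1 and of Has2 there, Hyal1 was above Has2 in both, and Cemip and Has3 overlapped. With only its unshared bases as length, a choice made after seeing the data, Hyal1 was at 1.19 ± 0.537 CPM per kb in Ctrl (SD, n = 3), above Has2 by its mean but overlapping it, and at 9.49 and 10.6 in Confine, above Hmmr in both. Cd44 stood at 4.19 to 4.83 times the level of Hmmr in Ctrl and at 32.8 and 15.1 times in Confine.

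The genes most like each of the 8 were taken as those with the smallest root mean square distance between centred log2 CPM profiles over the 5 libraries, among genes with an average log2 CPM above 2. For Has2 they were Jun (distance 0.0814), Whamm (0.0885) and Sgcd (0.0973). For Hyal1 they were Mxi1 (0.223), Kcnk3 (0.278) and Rgcc (0.280), and for Hyal2 they were Lbh (0.0369), Tmem86a (0.0462) and Scara5 (0.0491). Hmmr was closest to E2f8 (0.0463), Cenpe (0.0526) and Aspm (0.0590), which had log2 fold changes from -1.54 to -1.44. Cd44 was closest to Atrn (0.0714), Tns3 (0.0760) and Ero1lb (0.0777). The nearest genes were Slf1 (0.0797), Hmgb3 (0.0803) and Mtss1l (0.0851) for Cemip, Sdc1 (0.0484), Zfp36l2 (0.0663) and Coq2 (0.0683) for Has1, and 4930549G23Rik (0.169), Akap7 (0.247) and Nes (0.257) for Has3. Over 5 libraries in 2 groups, genes with a like fold change lie close together by construction.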

How the data were processed

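Libraries were labelled as 3 Ctrl and 3 Confine, and the groups and replicate numbers come from the sample titles. The authors deposited raw counts per Ensembl gene. Per the submitters' processing notes, Trim Galore 0.6.10, HISAT2 2.1.0, SAMtools 1.5, featureCounts and the build mm10 were used, while the annotation release and strand setting are not given in the sources used here. Of 55335 identifiers, 54587 matched GENCODE M21 (GRCm38) with version and 55154 without, which gave names, positions and exon lengths. Reads over shared exons may be dropped, split or counted for each gene. Levels of genes such as Hyal1 may therefore be too low or too high. Confine columns 1 and 2 differed in 0 genes and were counted once.

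Genes kept by filterByExpr (15881) were scaled with TMM factors. Groups were compared by glmQLFTest (edgeR 4.0.16, R 4.3.3), whose residual degrees of freedom were 3 and whose prior degrees of freedom had a median of 14.8, and p was adjusted over all tested genes. Standard errors are the log2 fold change over the root of the F statistic, and 95% intervals use the test's degrees of freedom, unadjusted. Floors are 3 counts and cover counting error only, as intervals of reads without molecular identifiers do. Promoter windows and motif matches use RefSeq (GRCm38.p6) and both strands. On simulated counts edgeR recovered 57.9% of 95 genes changed by 1 and 91.4% of 93 changed by 2 on the log2 scale. This was over 15395 genes, with 6.04% false calls. A far smaller share of genes was changed there than the 23.0% called in these data, so the rates may differ here. Alternatives were RLE factors, library size alone, other filters, DESeq2 1.42.0, limma-voom (limma 3.58.1), the replicate block, the identical columns as 2 samples, each library left out and, added after seeing the data, the unshared exon length of Hyal1.

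The genes, lists and motifs were chosen with earlier results of these data known. Genes named were the 8, called list genes, of the mitosis list the 3 largest changes and those not called, overlapping genes and the 3 nearest profiles. Other list genes, neighbours of Hyal1 and Hmmr and genes that did not pass the test were added after their values were seen. Columns not used numbered 0. A gene of the breakdown list and a leukocyte marker are not reported here.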

Additional observations from a re-analysis of the deposited data

How the results depend on the processing

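No result reversed. Has2, Hmmr and Hyal1 kept their call in all 14 alternatives. Has1 (14 alternatives) and Has3 (the 11 that kept it) did not pass the test in any. With the replicate block and the repeated Confine library as number 2, Cemip was at -1.25 (edgeR adjusted p = 0.066) and 5 of the 8 genes were called, against 6, and with it as number 1, 6. Each block left 1 residual degree of freedom. The block called 2528 and 4933 genes. Same-numbered differences between libraries correlated at -0.0577 and 0.0567 across 15881 genes, so the numbers were not taken to pair the libraries. The block changed no other call among the 8 genes. With the fold cutoff added, 1271 genes and 3 of the 8 were called. The genes lower in Confine numbered 1619, 2805 with library size alone and 2456 with the identical columns as 2 samples. With each library left out in turn, 2054 to 4426 genes were called of 3654 (1196 to 2411 higher, 850 to 2015 lower), with the fewest without a Confine library, and 3 to 6 of the 8. Leaving out a Confine library leaves 1 in that group, which is assumed to vary like Ctrl. Over all fits that left out a library, the log2 fold change ran from 0.57 to 0.91 for Cd44, 0.59 to 0.85 for Hyal2 and -1.39 to -0.96 for Cemip. The ends for Hyal2 came from leaving out a Ctrl library, and without a Confine library Hyal2 was at 0.76 and 0.73. Beyond the fewer libraries, the cause of the lost calls was not tested. With the longest transcript as length, Has2 made up 71.9% of the synthase sum in Ctrl and 87.1% in Confine. Hyal1 then made up 15.3% of the sum of Hyal1, Hyal2 and Cemip in Confine. The low counts of Has1, Has3 and Cemip limit these results.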
